A study of Mus musculus with 6 samples.

Results

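The lysine demethylases (Kdm genes) and the KMT2, SETD and NSD methyltransferases were examined in RNA-seq counts from mouse fetal liver cells. The members were the protein-coding genes of GENCODE M21 whose symbols begin with Kdm or Setd or Nsd and a digit, or with Kmt2. Of 36 symbols that matched, 2 were not protein-coding and 1 was Y-linked and left out, which gave 33 members among the 54232 gene IDs in the files. Livers came from C57/B6 mouse embryos at E13.5 (days after conception), and cells carrying Ter-119, an antigen of maturing red cells, had been removed. The day 0 group (3 libraries) held these cells untreated, and the 30 h group (3 libraries) held cells after 30 h of culture with erythropoietin (EPO), the hormone that drives red cell production. DMSO, a solvent control, was added to the 30 h cells at 24 h, for the last 6 h. The 30 h libraries therefore differ from day 0 by culture, by EPO, by time and by DMSO, and these cannot be told apart. Whether replicates are separate animals or cultures is not given in the labels, so the p-values refer to the spread among libraries, which may be technical. The labels call the starting cells progenitors and name no single cell type.

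Methyl groups on the tail of histone H3 are written by SET-domain methyltransferases and removed by demethylases. Methylation at H3K4 marks promoters and enhancers, methylation at H3K36 follows transcribed gene bodies, and methylation at H3K9 and H3K27 is tied to silent chromatin. Kdm1a and Kdm1b are flavin-dependent amine oxidases, whereas the other Kdm proteins carry a JmjC domain that uses oxygen, iron and 2-oxoglutarate. In erythroid cells Kdm1a (LSD1) works with CoREST and the repressor GFI1B, and chromatin condenses as the cells mature.

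Library totals ranged from 19241780 to 29949173 counts. Erythroid markers differed between the groups: all 12 erythroblast markers were higher at 30 h, 11 with scaling by totals only (summed level 1880 to 2060 CPM at day 0 and 94385 to 134190 CPM at 30 h), and all 7 progenitor markers were lower (693 to 743 and 198 to 230 CPM). Markers of other cells moved too. Summed levels for day 0 and then 30 h were 13158 to 14818 and 795 to 2322 CPM for hepatoblasts (9 of 10 lower), 172 to 199 and 30.4 to 38.4 CPM for endothelium (7 of 7 lower), and 1473 to 1877 and 23.7 to 56.4 CPM for mesenchyme (6 of 7 lower). They were 197 to 218 and 145 to 217 CPM for macrophages (3 of 7 higher and 2 lower), 3136 to 3241 and 3637 to 5658 CPM for granulocytes (2 of 6 higher and 2 lower), 522 to 621 and 570 to 909 CPM for megakaryocytes (1 of 6 higher and 3 lower), and 23.7 to 25.0 and 15.0 to 19.2 CPM for lymphoid cells (2 of 5 tested lower). No marker was at 0 in all libraries, and Cd3e, which defines T cells, had no counts at 30 h. The part of these other cells in the results below was not tested, and fewer cells of a type cannot be told apart from less RNA per cell. Among the 30 h libraries, replicate 3 stood apart in raw counts, where chi-square divided by its degrees of freedom was 99.8 against replicate 1 and 55.1 against replicate 2. Replicates 1 and 2 gave 12.1, and day 0 pairs gave 4.29 to 5.98. Calls that changed without replicate 3 are given both ways.

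Of the 33 members, 32 passed the filter on low counts. Kdm4d, a testis-associated demethylase, did not, with 0 to 4 counts per library. In the edgeR fit over all genes, 12 members were higher at 30 h and 5 lower, and 15 did not pass an adjusted p of 0.05. Of all 16150 genes tested, 34.4% were called higher and 40.1% lower, together 74.5%. Of the 14363 protein-coding genes tested, 32.1% were higher and 43.6% lower. The median log2 change was 0.31 for the members and -0.09 over all genes tested. Libraries of the groups did not overlap for 16 members, 10 with every 30 h library above day 0 and 6 with every one below, whereas 79.7% of all genes tested had groups that did not overlap. Levels are CPM scaled by TMM, a scaling that assumes most genes do not change. With library totals as the only scaling, the median log2 change of all genes became -0.58, and 8 members were higher and 11 lower (22.3% and 54.4% of all genes tested). Of the members, 13 were called in the same direction under both scalings. Removing each library's GC trend gave 14 higher and 4 lower members (33.4% and 40.4% of genes), and removing the length trend gave 15 and 5 (31.8% and 43.3%).

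**Figure D1:**
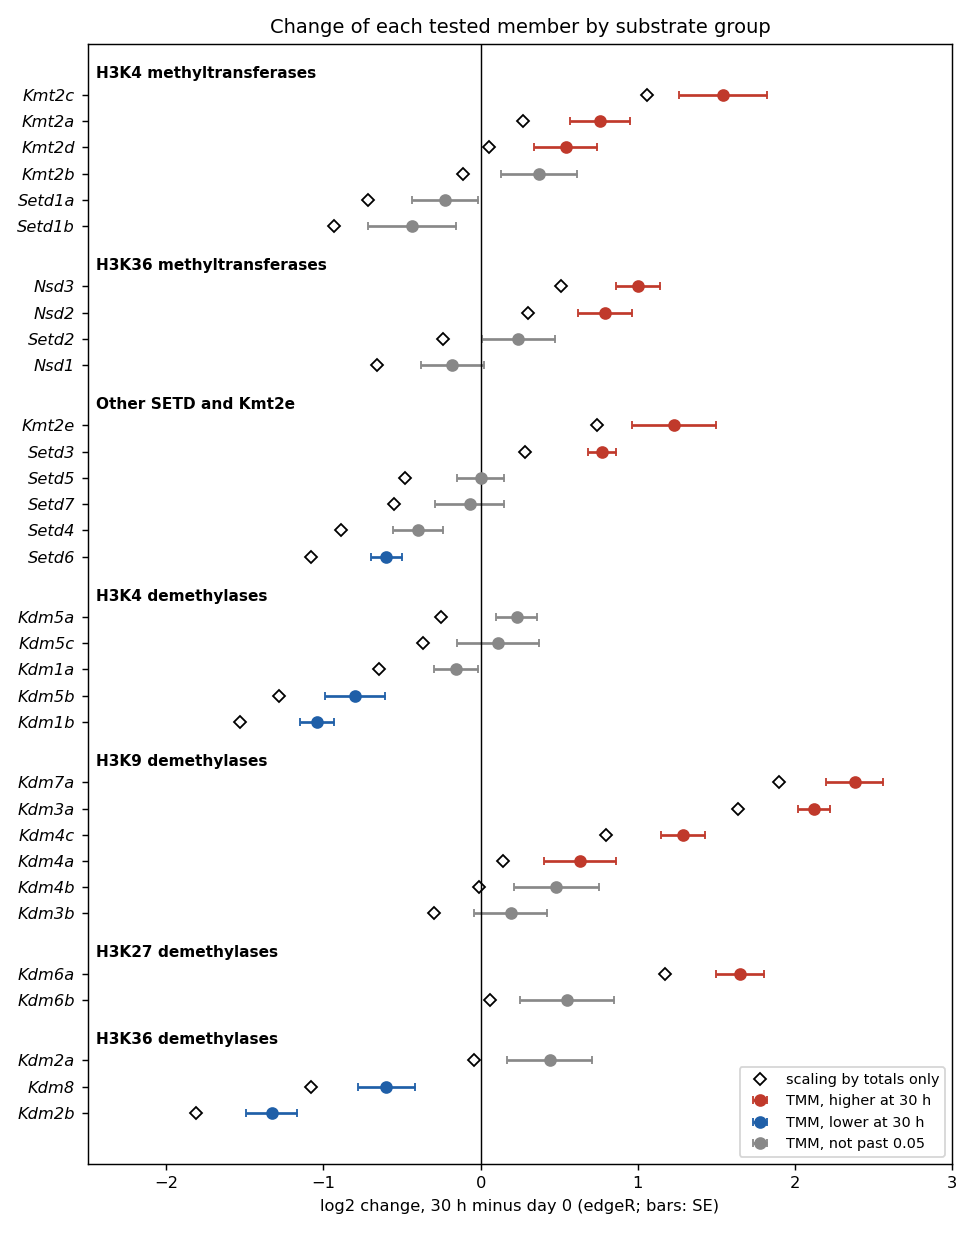
Log2 change at 30 h relative to day 0 for the 32 tested members, by substrate group. Filled points show edgeR estimates with TMM and their SE (n = 3 libraries per group), coloured by call, and open diamonds show the estimates when libraries were scaled by totals only; Kdm7a and Kdm3a lie farthest to the right (2.38 and 2.12) and Kdm2b farthest to the left (-1.33).

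The H3K4 methyltransferases comprise 4 large KMT2 proteins and the SETD1 pair. Of the 6 genes, 3 rose (Kmt2c, Kmt2a and Kmt2d), none fell, and Setd1a and Setd1b did not pass. Of all genes tested, 34.4% were called higher and 40.1% lower. Kmt2c (chromosome 5, 25271798 to 25498783, mm10), which places monomethyl marks at enhancers together with Kmt2d, stood at 15.2, 16 and 19.9 CPM at day 0 and at 69.5, 49.3 and 29.9 CPM in 30 h replicates 1, 2 and 3. Every 30 h library was above every day 0 library, and the rise was 2.91-fold (log2 1.54 ± 0.28 SE, adjusted p = 0.00139). Kmt2a, the MLL protein that maintains Hox gene expression, went from 19.4, 25.1 and 25.5 CPM to 47.1, 41.4 and 29.6 CPM. Its groups did not overlap, and the rise was 1.69-fold (adjusted p = 0.00688). Kmt2d went from 25.4, 33.6 and 31.9 CPM to 52.8, 47.2 and 31.5 CPM, so that 30 h replicate 3 lay within the day 0 range (1.45-fold, adjusted p = 0.0396). With scaling by totals only, Kmt2c kept its call, whereas Kmt2a and Kmt2d had log2 changes of 0.27 and 0.05 and neither passed. The call of Kmt2d was also lost without any 1 of the day 0 libraries and without 30 h replicate 1 or 2 (adjusted p from 0.0525 to 0.146), with upper-quartile scaling (adjusted p = 0.0676) and with limma-trend (adjusted p = 0.0582), and in 10 of 19 alternatives in all.

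Kmt2b, which acts at CpG-rich promoters, had the highest RPKM of the 6 (CPM per kilobase of merged exons, 6.19 at day 0 and 8.01 at 30 h). It stood at 51.5, 62.3 and 64.5 CPM at day 0 and 97.7, 84.7 and 48.3 CPM at 30 h, with replicate 3 below every day 0 library, and did not pass (log2 0.37, adjusted p = 0.19). It was called higher without 30 h replicate 3 (log2 0.62, adjusted p = 0.000475) and after GC trend removal (log2 0.96, adjusted p = 0.00735). Setd1a and Setd1b are the catalytic subunits of the SET1 complexes, which write most trimethyl H3K4. Setd1a stood at 25.8, 29.9 and 28.8 CPM and then at 30.9, 24.7 and 16.1 CPM (log2 -0.23, adjusted p = 0.353). Setd1b stood at 40.1, 52.9 and 48.6 CPM and then at 45.0, 39.2 and 19.6 CPM (log2 -0.44, adjusted p = 0.177). In both, replicates 2 and 3 at 30 h lay below every day 0 library. Without replicate 3 the log2 changes were -0.01 for Setd1a and -0.16 for Setd1b, and neither passed. Without 30 h replicate 1 they were -0.41 and -0.63, and Setd1b was called lower (adjusted p = 0.0452). With scaling by totals only both were called lower (log2 -0.72 and -0.93), while GC trend removal gave 0.12 and 0.14 on the log2 scale, and neither passed. Annotated exons of other genes cover 52.3% of the exon sequence of Setd1a, so its count is uncertain.

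Of the 4 H3K36 methyltransferases, 2 rose and none fell, against 34.4% and 40.1% of all genes tested. Nsd3 (chromosome 8, 25601601 to 25719667) is a dimethyltransferase. It stood at 55.6, 63.8 and 64.5 CPM at day 0 and at 143, 123 and 101 CPM at 30 h, a 1.99-fold rise with groups that did not overlap (adjusted p = 0.000367). Nsd2, a dimethyltransferase linked to Wolf-Hirschhorn syndrome in humans, had the highest RPKM of the group (8.32 at day 0 and 14.4 at 30 h). Its levels were 135, 140 and 144 CPM and then 296, 247 and 183 CPM, again with no overlap (1.73-fold, adjusted p = 0.003). Its call was lost with scaling by totals only (log2 0.30, adjusted p = 0.147) and after GC trend removal (log2 0.35, adjusted p = 0.132).

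Nsd1 and Setd2 did not pass. Nsd1, the third NSD enzyme, stood at 76.0, 78.8 and 83.6 CPM at day 0 and 87.7, 74.6 and 48.1 CPM at 30 h (log2 -0.18, adjusted p = 0.441). Setd2, the enzyme that writes trimethyl H3K36 behind elongating RNA polymerase II, stood at 51.3, 57.5 and 60.5 CPM and then at 88.6, 67.3 and 44.1 CPM (log2 0.24, adjusted p = 0.358). For both, the 30 h libraries lay on either side of the day 0 range. Without 30 h replicate 3, Setd2 was called higher (log2 0.47, adjusted p = 0.00525) and Nsd1 had a log2 change of 0.04 (adjusted p = 0.682), whereas with scaling by totals only Nsd1 was called lower (log2 -0.66, adjusted p = 0.021).

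The remaining SETD genes and Kmt2e have other substrates or no established histone activity. Of these 6, 2 rose and 1 fell, against 34.4% and 40.1% of all genes tested. Kmt2e, a KMT2 relative with no established methyltransferase activity that is needed in blood formation in mice, stood at 37.7, 47.3 and 46.0 CPM at day 0 and at 140, 105 and 62.4 CPM at 30 h (2.35-fold, adjusted p = 0.00332), with no overlap. Exons of Srpk2, on the opposite strand, cover 9.3% of the Kmt2e exon sequence. Setd3, a histidine methyltransferase of actin, had the highest RPKM of these genes at 30 h (18.1), and Setd6 at day 0 (16.3). Setd3 levels of 65.4, 63.6 and 62.9 CPM and then 108, 106 and 113 CPM gave a 1.70-fold rise (adjusted p = 9.7e-05) with tight replicates. Setd3 was, with Setd4, 1 of the 2 tested members whose lowest 30 h value was not in replicate 3. Setd6, a methyltransferase of the NF-kappa-B subunit RelA, fell 1.51-fold, from 30.9, 31.6 and 30.8 CPM to 22.0, 20.6 and 19.1 CPM, again with no overlap (adjusted p = 0.00083).

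Setd4, Setd5 and Setd7 did not pass. Setd4 was the least abundant of the tested members in CPM, at 6.78, 6.29 and 7.10 CPM and then 4.79, 4.41 and 6.17 CPM, with all 30 h libraries below day 0 (log2 -0.40, adjusted p = 0.0544). Without 30 h replicate 3 it was called lower (log2 -0.54, adjusted p = 0.0098). Setd4 was also called lower with scaling by totals only (log2 -0.89, adjusted p = 0.000997). The same held with upper-quartile scaling (log2 -0.53, adjusted p = 0.041) and with no filter on low counts (log2 -0.49, adjusted p = 0.0422). Setd5, a SETD protein without a settled activity, stood at 90.5, 97.7 and 89.6 CPM and then 109, 96.7 and 73.1 CPM (adjusted p = 0.982). With scaling by totals only it was called lower (log2 -0.48, adjusted p = 0.0236). Setd7, which monomethylates H3K4 in vitro and several other proteins, stood at 21.4, 25.2 and 24.5 CPM and then 28.2, 24.5 and 14.9 CPM (log2 -0.07, adjusted p = 0.786). In Setd5 and Setd7 the 30 h libraries spanned the day 0 range, and without 30 h replicate 3 the estimates were 0.15 and 0.16 (log2), with no call.

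Among the H3K4 demethylases, 2 of 5 fell and none rose, against 40.1% and 34.4% of all genes tested. The share that fell was near that of all genes. Kdm1b (chromosome 13, 47043499 to 47085279), the LSD2 amine oxidase, went from 20.7, 20.9 and 21.8 CPM to 10.7, 11 and 9.19 CPM, a 2.05-fold fall with close replicates (log2 -1.04 ± 0.11 SE, adjusted p = 7.91e-05). Kdm5b, a JmjC enzyme that removes trimethyl H3K4, went from 84.2, 83.9 and 82.7 CPM to 58.4, 52.3 and 33.4 CPM (1.74-fold lower, adjusted p = 0.00548). Both had every 30 h library below day 0. Exons of Dek, on the opposite strand, cover 9.2% of the Kdm1b exon sequence, and the counts may not separate strands.

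The most abundant genes of this group per length were Kdm5c and Kdm1a, neither of which passed. Kdm1a stood at 122, 129 and 125 CPM at day 0 and 130, 115 and 90.1 CPM at 30 h (24.2 and 21.6 RPKM, log2 -0.16, adjusted p = 0.317). Kdm5c, an X-linked enzyme of the same family as Kdm5b, stood at 165, 178 and 165 CPM and then 248, 193 and 108 CPM (23.8 and 25.7 RPKM, adjusted p = 0.709). Kdm5a, an RB-binding demethylase, stood at 67.6, 67.8 and 73.7 CPM and then 92.3, 84.5 and 68.9 CPM (log2 0.23, adjusted p = 0.124). The 30 h libraries of all 3 genes overlapped day 0 or lay on either side of it. Without 30 h replicate 3, Kdm5c and Kdm5a were called higher (log2 0.39 and 0.35) and Kdm1a had a log2 change of -0.02 (adjusted p = 0.741). With scaling by totals only Kdm1a was called lower (log2 -0.65, adjusted p = 0.00444). The ratio of summed counts per kilobase of H3K4 methyltransferases to H3K4 demethylases, which does not depend on library scaling, was 0.259, 0.303 and 0.311 at day 0 and 0.380, 0.380 and 0.337 after culture.

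The H3K9 demethylases held the largest rises of all members. Of 7 genes, 4 rose and none fell, 2 did not pass and Kdm4d was not tested. Of all genes tested, 34.4% were called higher and 40.1% lower. The median log2 change of the 6 H3K9 demethylases tested was 0.96. Kdm7a (chromosome 6, 39136623 to 39206789, minus strand), which removes dimethyl H3K9 and H3K27, stood at 13.1, 12.1 and 13.6 CPM at day 0 and at 78.9, 73.1 and 50.1 CPM at 30 h. Kdm3a (chromosome 6, 71588972 to 71632990, minus strand), which removes mono- and dimethyl H3K9 and is a known target of hypoxia-inducible factors, stood at 40.6, 41.8 and 40.0 CPM and then at 184, 185 and 165 CPM. In both genes the 30 h libraries lay far above day 0, with rises of 5.21-fold for Kdm7a (log2 2.38 ± 0.18 SE, adjusted p = 1.23e-05) and 4.36-fold for Kdm3a (log2 2.12 ± 0.10 SE, adjusted p = 1.24e-06). The Kdm3a libraries were also close to one another, with a coefficient of variation at 30 h of 6.36%, against a median of 24.5% over the tested members. Both calls held in all 19 alternative settings.

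The KDM4 enzymes remove di- and trimethyl marks from H3K9 and, for Kdm4a, Kdm4b and Kdm4c, from H3K36. Kdm4c rose 2.45-fold, from 19.8, 19.5 and 22.9 CPM to 53.9, 55.8 and 42.5 CPM (adjusted p = 7.08e-05). Kdm4a had the highest RPKM of the group (15.4 at day 0 and 23.8 at 30 h), with 91.3, 91.2 and 85.0 CPM and then 179, 147 and 87.9 CPM (1.54-fold, adjusted p = 0.0366). Its 30 h replicate 3 lay within the day 0 range, and the call was lost with scaling by totals only (log2 0.14, adjusted p = 0.602) and without any 1 of the day 0 libraries (adjusted p = 0.0855, 0.093 and 0.11 without replicates 1, 2 and 3) or without 30 h replicate 2 (adjusted p = 0.103). It was also lost with upper-quartile scaling (adjusted p = 0.0537) and with limma-trend (adjusted p = 0.0667), and in 8 of 19 alternatives in all. Kdm4b stood at 39.9, 42.2 and 38.6 CPM and then 74.9, 61.2 and 31.6 CPM (log2 0.48, adjusted p = 0.145), and it passed without 30 h replicate 3 (log2 0.76) and with the GC trend removed (log2 1.02, adjusted p = 0.00979). Kdm3b, the paralog of Kdm3a, stood at 65.3, 72.5 and 73.3 CPM and then 105, 83.6 and 51.1 CPM (log2 0.19, adjusted p = 0.487). Replicate 3 lay below and replicates 1 and 2 above day 0 in Kdm3b, and so in Kdm4b. Without replicate 3, Kdm3b was called higher (log2 0.43, adjusted p = 0.00258). Annotated exons of an opposite-strand gene cover 24.6% of its exon sequence.

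The 250 bases before the RefSeq start of the genes with the largest rises, Kdm7a and Kdm3a, and the largest falls, Kdm2b and Kdm1b, are shown because these 4 promoters belong to the members at the ends of the range of change. Sequences are from RefSeq (GRCm38.p6), written along the gene. Capitals mark matches to CCNCNCCC, a pattern bound by KLF factors, and to ACGTG, the core of hypoxia response elements, on either strand, and overlapping matches run together.

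Kdm7a (chr6:39206774-39207023, minus strand): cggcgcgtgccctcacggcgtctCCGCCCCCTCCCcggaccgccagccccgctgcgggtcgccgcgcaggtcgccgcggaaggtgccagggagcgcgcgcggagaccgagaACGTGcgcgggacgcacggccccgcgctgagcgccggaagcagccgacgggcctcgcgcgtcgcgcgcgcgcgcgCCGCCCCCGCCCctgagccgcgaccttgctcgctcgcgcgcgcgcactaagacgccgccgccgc
Kdm3a (chr6:71632687-71632936, minus strand): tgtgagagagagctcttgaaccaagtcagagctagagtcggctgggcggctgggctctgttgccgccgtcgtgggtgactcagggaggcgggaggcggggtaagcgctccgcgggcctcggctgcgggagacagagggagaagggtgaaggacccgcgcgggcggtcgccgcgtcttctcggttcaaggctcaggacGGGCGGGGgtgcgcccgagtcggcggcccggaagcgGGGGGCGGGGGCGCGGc
Kdm2b (chr5:122989100-122989349, minus strand): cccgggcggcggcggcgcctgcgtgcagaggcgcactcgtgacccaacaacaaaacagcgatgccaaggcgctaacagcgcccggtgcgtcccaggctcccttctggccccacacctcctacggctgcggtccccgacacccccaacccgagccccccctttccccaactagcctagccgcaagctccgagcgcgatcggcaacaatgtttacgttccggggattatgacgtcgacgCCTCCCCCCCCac
Kdm1b (chr13:47043249-47043498, plus strand): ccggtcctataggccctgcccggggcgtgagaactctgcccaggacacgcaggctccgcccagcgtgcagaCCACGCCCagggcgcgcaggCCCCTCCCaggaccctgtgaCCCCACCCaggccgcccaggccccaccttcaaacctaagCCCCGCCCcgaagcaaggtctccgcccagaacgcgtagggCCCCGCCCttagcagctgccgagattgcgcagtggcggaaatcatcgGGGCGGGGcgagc

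The CCNCNCCC pattern matched at 4, 4, 2 and 6 places in Kdm7a, Kdm3a, Kdm2b and Kdm1b, so that it was present in both directions of change. Of all 32851 promoter windows, 45.9% held it. ACGTG matched once, in Kdm7a, and 16.6% of all windows held it. The pattern of GATA factors was searched as AGATAA or, with G as its last letter, AGATAG, and with T as its first letter as TGATAA or, ending in G, TGATAG. No window of the 4 held it, and 26.5% of all windows did. Promoters were found in the RefSeq table for 22 members. With 1 window each, the KLF, hypoxia and GATA patterns were in 54.5%, 18.2% and 22.7% of them, and GC content had a median of 62.0%, against 52.4% over all windows. A match is a description of letters and not of a bound site.

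The genes grouped as H3K27 demethylases are a pair. Kdm7a, which also removes H3K27 methylation, was counted with the H3K9 demethylases. Kdm6a (chromosome X, 18162575 to 18279936), or UTX, which also belongs to the Kmt2c and Kmt2d complexes, stood at 34.7, 32.7 and 36 CPM at day 0 and at 126, 113 and 86.2 CPM at 30 h, a 3.14-fold rise (log2 1.65 ± 0.15 SE, adjusted p = 3.05e-05). Kdm6b, or JMJD3, an inducible enzyme in immune cells, stood at 29.5, 42.0 and 32.0 CPM and then 69.4, 52.7 and 28.5 CPM. The 30 h values of Kdm6a were all above day 0, whereas those of Kdm6b spanned the day 0 range (log2 0.55, adjusted p = 0.129). Kdm6b passed without 30 h replicate 3 (log2 0.83, adjusted p = 0.00408) and after GC trend removal (log2 1.2, adjusted p = 0.00715).

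Of the 3 genes grouped as H3K36 demethylases, 2 fell, against 40.1% of all genes tested. Kdm2b (chromosome 5, 122870665 to 122989823, minus strand), which recruits a variant Polycomb complex to CpG islands, went from 66.3, 68.4 and 67.7 CPM to 31.4, 29.1 and 20 CPM. All 30 h libraries were below day 0, and the 2.51-fold fall was the largest among the members (log2 -1.33 ± 0.16 SE, adjusted p = 0.000161). Annotated exons of other genes, Rnf34 and A930024E05Rik on the opposite strand among them, cover 8.7% of its exon sequence. Kdm8, a JmjC protein first described as an H3K36 demethylase and since as a hydroxylase, fell 1.51-fold, from 21.5, 24.7 and 23.0 CPM to 18.7, 15.5 and 11.5 CPM (adjusted p = 0.0149). Its call was lost with the GC trend removed (log2 -0.42, adjusted p = 0.0539) and without day 0 replicate 2 (adjusted p = 0.0539). Its 30 h libraries all lay below day 0. Kdm8 had the highest RPKM of the 3 at day 0 (9.66), and Kdm2a at 30 h (7.12).

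Kdm2a, the paralog of Kdm2b, stood at 70.1, 81.0 and 76.6 CPM and then 144, 105 and 60.3 CPM (log2 0.44, adjusted p = 0.174), with 30 h replicate 3 below day 0 and replicates 1 and 2 above. It was called higher without 30 h replicate 3 (log2 0.72, adjusted p = 0.00112). The ratio of summed counts per kilobase of the H3K36 methyltransferases to Kdm2a, Kdm2b and Kdm8 was 1.03, 0.992 and 1.08 at day 0. At 30 h it was 1.91, 1.99 and 2.20. Kdm4a, Kdm4b and Kdm4c, which also act on H3K36, were grouped with the H3K9 demethylases and are left out of this ratio. Their mean RPKM was 15.4, 8.22 and 3.56 at day 0 and 23.8, 11.4 and 8.71 at 30 h. Kdm4a exceeded every gene of the denominator in both groups, and all 3 of these KDM4 genes had a higher mean RPKM after culture. Kdm8, since described as a hydroxylase, is counted in the denominator, and its mean RPKM went from 9.66 to 6.37. The rise of the ratio was thus seen for Kdm2a, Kdm2b and Kdm8 only, and not shown for H3K36 demethylases as a whole. A ratio that includes Kdm4a, Kdm4b and Kdm4c was not computed.

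**Figure D2:**
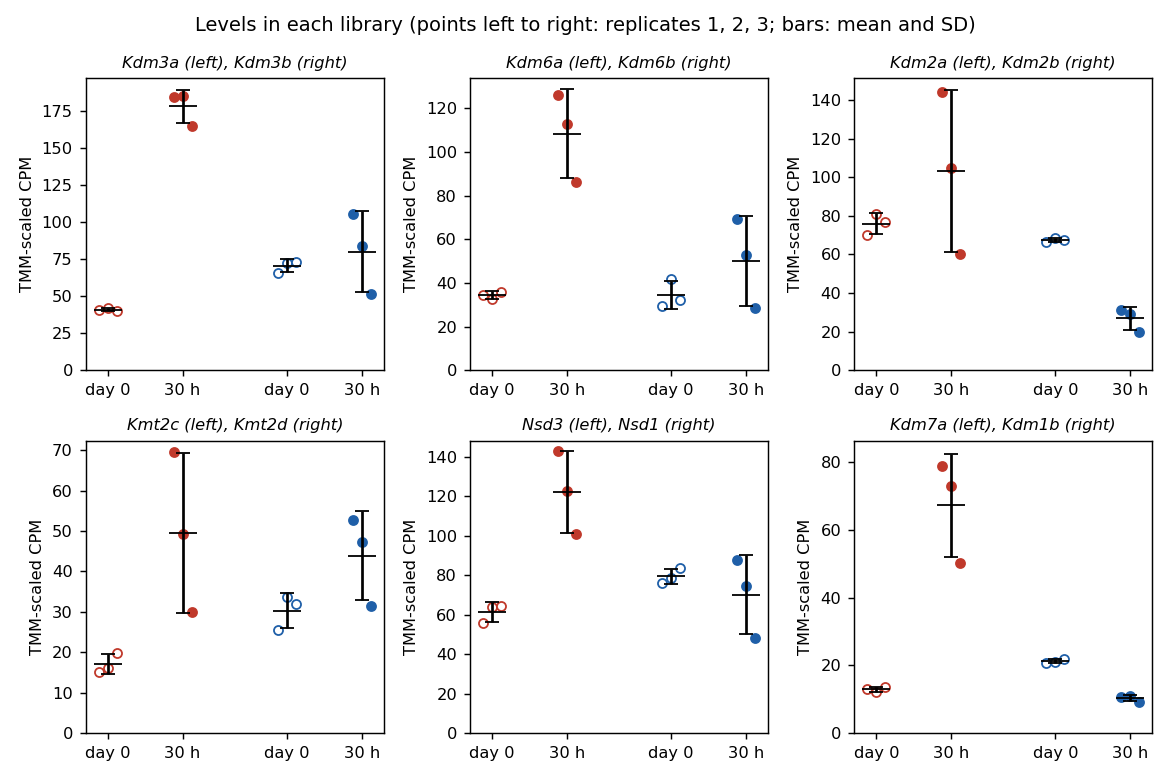
TMM-scaled CPM of 12 members in each of the 6 libraries, open points for day 0 and filled points for 30 h, with mean and SD (n = 3). Kdm3a and Kdm6a sit above their day 0 values in every 30 h library, while Kdm3b, Kdm6b and Kdm2a have 30 h replicate 3 below the day 0 mean.

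The balance between paralogs was measured as the share of each gene in the counts per kilobase of its family, a value that does not depend on how libraries are scaled. The Kdm3, Kdm2 and Kdm6 pairs had the widest shifts of the families measured. Kdm3a made up 51.6%, 49.7% and 48.3% of the Kdm3 family at day 0 and 74.9%, 79.1% and 84.7% at 30 h. Kdm2b fell from 54.2% ± 1.42 to 26.7% ± 4.05 of the Kdm2 family (SD, n = 3). Kdm6a went from 45.7% ± 5.57 to 65.2% ± 5.78 of the Kdm6 pair, and Kdm1b from 13.7% ± 0.424 to 8.06% ± 0.819 of the Kdm1 pair. Kdm4c went from 13.1% ± 1.51 to 20.7% ± 4.28 and Kdm5b from 15.0% ± 0.413 to 8.57% ± 0.658 of their families (SD, n = 3).

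Among the methyltransferases, Nsd1 dropped from 27.4% ± 0.430 to 15.4% ± 1.24 of the Nsd family, while Nsd2 went from 50.2% to 55.7% and Nsd3 from 22.4% to 28.9%. Kmt2b dropped from 43.8% ± 0.486 to 32.3% ± 1.25 of the Kmt2 family, Kmt2e went from 29.6% ± 0.642 to 39.1% ± 1.82, and Kmt2c from 5.95% ± 0.615 to 9.71% ± 0.727 (SD, n = 3). In each of these shifts the groups did not overlap, and exact permutation of the libraries gave a two-sided p = 0.1, the floor for groups of 3. Kmt2a held 9.87% of its family at day 0 and 9.80% after culture, and the Setd1 pair overlapped between groups (Setd1a 51.5% ± 1.64 and 55.7% ± 3.29). Merged exon lengths set the level of a share but not its direction over time, which was the same with raw counts for every gene.

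**Figure D3:**
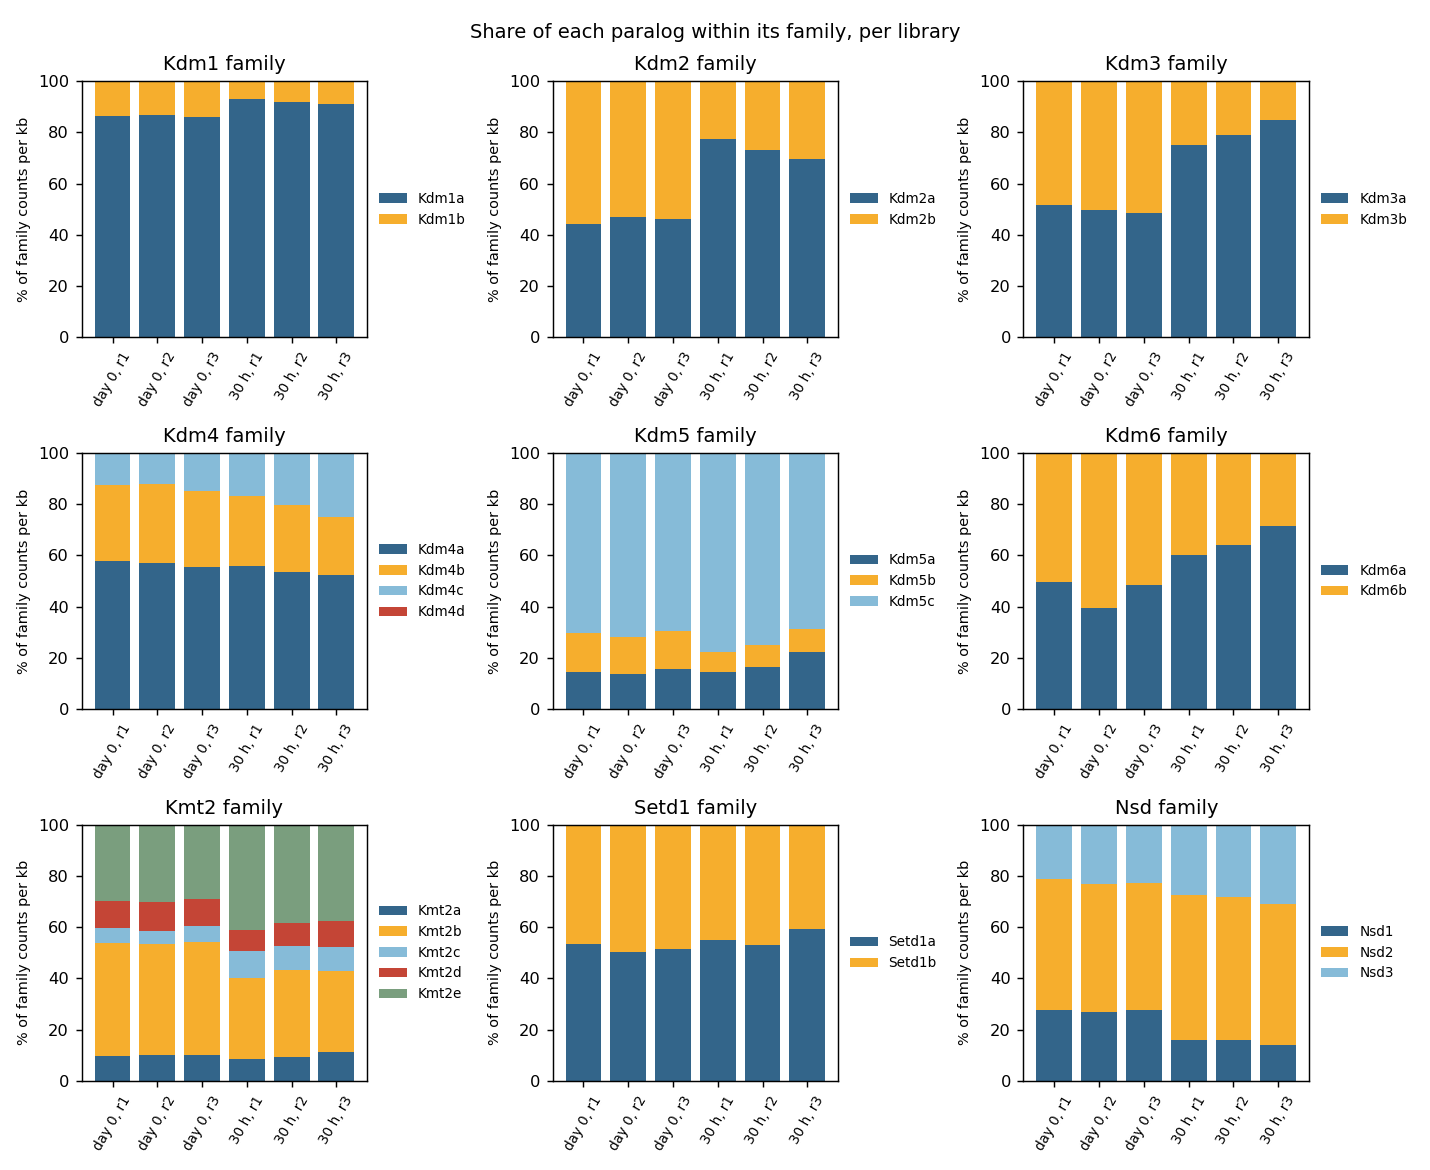
Share of each paralog in the counts per kilobase of its family (percent, stacked to 100), for the 6 libraries with replicate numbers marked r1 to r3. The Kdm2, Kdm3 and Kdm6 pairs change their balance between day 0 and 30 h, for example Kdm3a from 49.9% to 79.6% on average. The share of Nsd1 in the Nsd family falls from 27.4% to 15.4%.

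The members varied more between the 30 h libraries than between the day 0 libraries, and in 1 direction. The median coefficient of variation of the tested members was 5.92% at day 0 and 24.5% at 30 h, against 6.40% and 19.8% over all genes tested. At 30 h, replicate 3 was lowest for 30 of the 32 tested members (93.8%), whereas it was lowest for 43.5% of all genes tested. Replicate 1 was highest for 27 of the 32 (84.4%), against 37.5% of all genes tested. Levels fell in order from replicate 1 to 2 to 3 for 84.4% of the members, against 30.7% of all genes tested. The median log2 difference between replicates 1 and 3 was 0.71 for the members and 0.00 over all genes tested. The difference was large for Kdm6b, Kdm2a and Kdm4b, whose level in replicate 1 was 2.43, 2.38 and 2.37 times that in replicate 3, and small for Kdm3a, Setd6 and Kdm1b (1.12, 1.15 and 1.16 times).

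The members are long genes, with a median merged exon length of 10250 bases against 4105 over all genes tested. Among the 2555 tested protein-coding genes with merged exons of at least 8000 bases, replicate 3 was lowest for 67.9%. The median difference between replicates 1 and 3 was 0.33. The same values were 100% and 0.76 for the 20 members above that limit. Lengths were not matched, because these 20 had a median of 14126 bases and the 2555 genes 10282. Of those 2555 genes, 26.8% were called higher and 45.7% lower at 30 h, and of the 20 members 9 and 2. In the same libraries, 8 of 12 erythroblast markers were lowest in replicate 3, among them Slc4a1, the band 3 anion exchanger, at 6602, 5137 and 3071 CPM in replicates 1, 2 and 3. The beta-globin gene Hbb-bs was higher there, at 65692, 66890 and 106624 CPM, and the remaining 11 markers summed to 29836, 27496 and 27565 CPM. Of 6 granulocyte markers 1, Mpo, was lowest in replicate 3, and S100a8 and S100a9 were higher there, at 1046, 1099 and 1720 CPM and at 1420, 1602 and 2718 CPM. Of 10 hepatoblast markers, 0 were lowest in replicate 3, and they summed to 795, 2145 and 2322 CPM in replicates 1, 2 and 3. Of 7 mesenchymal markers, 0 were lowest in replicate 3, and they summed to 23.7, 56.4 and 44.1 CPM. Progenitor, endothelial and megakaryocyte lists had 4 of 7, 3 of 7 and 3 of 6 lowest in replicate 3. Macrophage and lymphoid lists had 1 of 7 and 1 of 6. The part of these genes in the spread was not tested. Without 30 h replicate 3, 20 members were higher and 6 lower (37% and 41.7% of the 16824 genes then tested), and the 12 and 5 called with all libraries were among them. The members gained were Kdm2a, Kdm3b, Kdm4b, Kdm5a, Kdm5c, Kdm6b, Kmt2b and Setd2 among the higher and Setd4 among the lower.

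**Figure D4:**
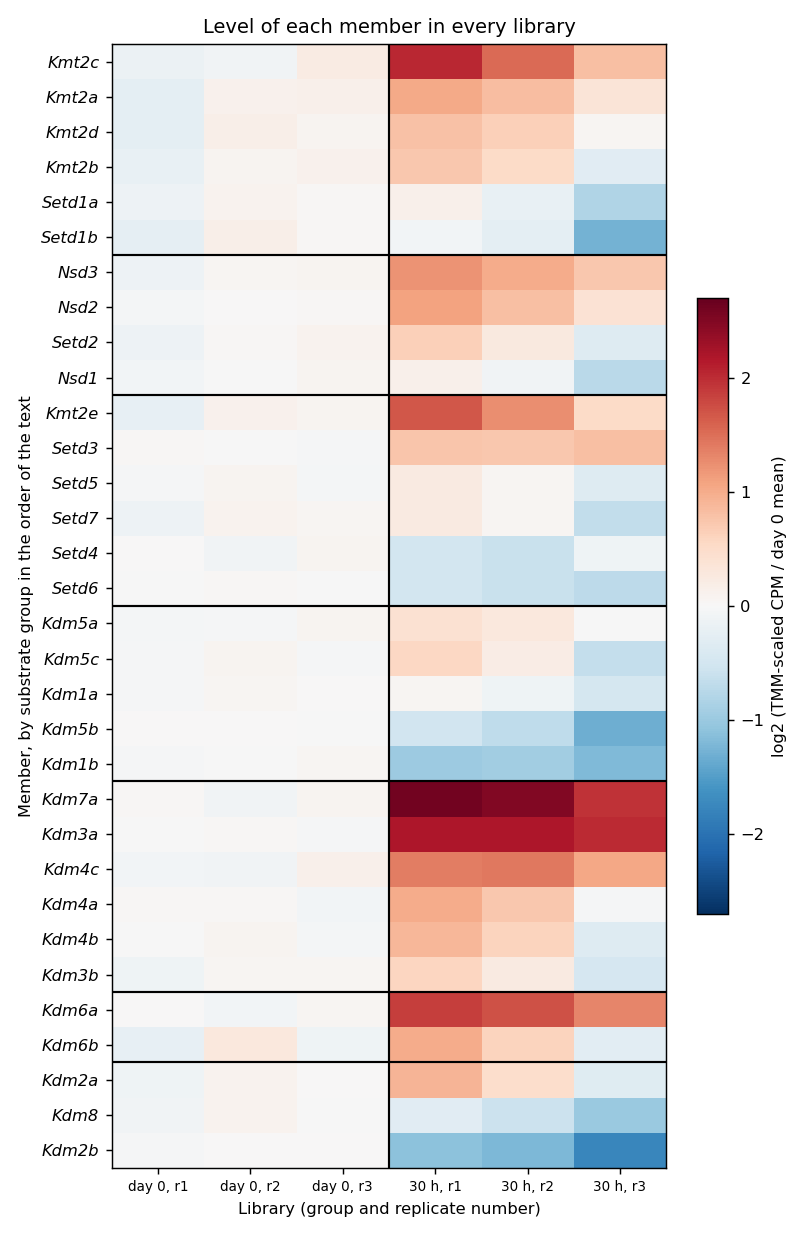
Log2 of TMM-scaled CPM relative to the day 0 mean for the 32 tested members (rows, by substrate group) in each library (columns, replicates r1 to r3). The 30 h replicate 3 column is lower than the replicate 1 and 2 columns for 30 of the 32 members, and Kdm7a and Kdm3a are high in all 3.

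Of 15 partners of the KMT2 and SETD1 complexes, 14 were tested, 4 were higher and 5 lower, and Pagr1a had no counts. Of all genes tested, 34.4% were higher and 40.1% lower. Bod1l, a SETD1A partner at replication forks, had the largest rise (2.95-fold, adjusted p = 0.00247), and Wdr82, the SETD1 subunit that binds RNA polymerase II, the largest fall (1.76-fold, adjusted p = 0.000477). Paxip1, Psip1 and Hcfc2 also rose (2.01-fold, 1.99-fold and 1.67-fold), and Men1 and Cxxc1 also fell (1.71-fold and 1.51-fold). The core subunits Wdr5 and Ash2l fell too, by 0.67 and 0.72 on the log2 scale. Rbbp5, also a core subunit, did not pass (log2 -0.06, adjusted p = 0.776). Dpy30, another core subunit, had the highest RPKM of the list and did not pass, at 135 ± 3.42 and 153 ± 37.7 CPM (SD, n = 3, adjusted p = 0.329).

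Of 12 partners of Kdm1a, 2 were higher and 4 lower, against 34.4% and 40.1% of all genes tested. Gfi1b, the repressor that brings Kdm1a to DNA, was both the most abundant per length and the largest rise, at 107 ± 3.51 and 187 ± 46.1 CPM (1.74-fold, adjusted p = 0.00332), and Zmym3, a zinc finger protein of CoREST complexes, the largest fall (3.01-fold, adjusted p = 3.17e-05). With scaling by totals only none of the 12 was higher and 7 were lower, against 22.3% and 54.4% of all genes tested.

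The JmjC proteins outside these symbols gave 2 higher and 3 lower of 10. For this list and those that follow, the shares of all genes tested were 34.4% higher and 40.1% lower. Jmjd6, a lysyl hydroxylase and the most abundant per length, rose 2.05-fold and Riox1, a nucleolar hydroxylase, fell 3.28-fold (adjusted p = 7.24e-05 and 1.2e-05). Of 9 other SET-domain and DOT1 methyltransferases, 4 were higher and 4 lower. Smyd5 fell 5.96-fold, from 121 ± 1.86 to 20.3 ± 2.82 CPM (SD, n = 3, adjusted p = 1.79e-06), and Smyd2, which methylates p53 and was the most abundant per length, fell 2.81-fold. Prdm9, known as the meiotic H3K4 methyltransferase, had the largest rise but at low level, from 0.504 ± 0.110 to 3.22 ± 0.797 CPM (SD, n = 3, adjusted p = 6.46e-05). Of 8 proteins that read H3K36 methylation, 5 were higher and 1 lower, led by Phf1, a PRC2 accessory protein (3.59-fold higher, adjusted p = 1.39e-05), and Msh6, a mismatch repair protein and the most abundant per length (1.62-fold lower, adjusted p = 0.00775). With scaling by totals only these 8 gave 1 higher and 3 lower, against 22.3% and 54.4% of all genes tested.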

How the data were processed

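RNA-seq gene counts were analysed for 3 day 0 and 3 30 h libraries. The authors deposited whole-number counts per Ensembl gene ID, 1 file per library; per the submitters' processing notes the tools were STAR, DESeq2, HTSeq (0.6.1p1) and cutadapt (1.13), with build mm10, and settings, annotation and strandedness are not given in the sources used here. Reads of overlapping or antisense genes may therefore be lost or mixed. Symbols, positions and exon lengths are from GENCODE M21 (54165 of 54232 IDs found). RPKM uses merged exons of all transcripts.

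Genes were kept by edgeR's filterByExpr (16150 genes), scaled by TMM and tested with the robust quasi-likelihood F test of edgeR 4.0.16 (R 4.3.3), Benjamini-Hochberg adjusted over all genes tested, at 0.05. SEs come from the F statistic. The coefficient of biological variation was 5.27% within day 0 and 20.2% within 30 h. Steps were tested on simulated data, in which few genes changed and both groups had the same spread. In the real data most genes were called and the spread was larger at 30 h, which the simulation does not cover. DESeq2 1.42.0 and limma 3.58.1 were alternatives, as were other scalings and filters, a test against a 1.5-fold change, removal of each library's GC or length trend, the replicate number as a block and each library left out.

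Members and lists were chosen with earlier results of these data known. Ratios between substrate groups and the comparison with long genes (merged exons of at least 8000 bases) were added after values were seen. Every member is named; values per library follow a rule (the largest rise, the largest fall and the highest RPKM of each substrate group, and members whose call or direction changes with scaling by totals only), and the remaining members were added. In partner lists the largest rise, the largest fall and the most abundant gene are named. Wdr5, Ash2l, Rbbp5, Pagr1a, Paxip1, Psip1, Hcfc2, Men1 and Cxxc1 were added after their values were seen.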

Additional observations from a re-analysis of the deposited data

How the results depend on the processing

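Of the 32 tested members, 10 kept direction and call in all 19 alternatives: Kdm1b, Kdm2b, Kdm3a, Kdm4c, Kdm6a, Kdm7a, Kmt2c, Kmt2e, Nsd3 and Setd3. The cause of the changes below was not tested, except that a test against a 1.5-fold change is stricter by construction. With 3 libraries per group, the median coefficient of variation of the members at 30 h was 24.5%, which limits the precision of each change.

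Scaling by totals only gave 3601 genes higher in all (5553 with TMM), 22.3% of those tested, and 54.4% were lower. It gave 11 members lower (5 with TMM), 1 higher and 2 lower H3K4 methyltransferases, 1 higher and 1 lower H3K36 methyltransferase, and 3 lower genes among the other SETD genes and Kmt2e. In the lists it gave 8 lower partners of the KMT2 and SETD1 complexes, 0 higher and 7 lower partners of Kdm1a, 1 higher and 5 lower other JmjC proteins, 2 higher other SET-domain methyltransferases, and 1 higher and 3 lower H3K36 readers. The test against a 1.5-fold change gave 2 members lower, 1 higher H3K4 and 1 higher H3K36 methyltransferase, 0 lower other SETD genes, and 1 lower H3K4 and 1 lower H3K36 demethylase. In the lists it gave 1 lower KMT2 and SETD1 partner, 0 higher Kdm1a partners, 1 higher other JmjC protein, 2 higher other SET-domain methyltransferases, and 1 higher and 0 lower readers.

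With the GC trend removed, alone or with the replicate block, 1 H3K36 methyltransferase and 2 H3K27 demethylases were higher and 1 H3K36 demethylase was lower, with 1 other JmjC protein higher and 3 readers higher and 2 lower. Upper-quartile scaling gave 2 lower other SETD genes and 3 higher readers, and no filter on low counts also gave 2 lower other SETD genes. DESeq2, its size factors in edgeR, and removal of the length trend each gave 1 higher H3K4 demethylase, and the last also 1 higher H3K36 demethylase.

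With each library left out in turn, the members higher ranged from 10 to 20. Lower H3K4 methyltransferases ranged from 0 to 1, lower other SETD genes from 1 to 2, higher H3K4 demethylases from 0 to 2, higher H3K27 demethylases from 1 to 2, and H3K36 demethylases from 0 to 1 higher and from 1 to 2 lower. Higher Kdm1a partners ranged from 2 to 5, other JmjC proteins from 2 to 4 higher and from 3 to 5 lower, and higher readers from 3 to 6. The highest counts of members (20) and of Kdm1a partners (5) came without 30 h replicate 3.

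No member called with all libraries and TMM changed sign in the 19 alternatives. Among those that did not pass, scaling by totals only gave log2 changes of -0.045 for Kdm2a, -0.30 for Kdm3b, -0.0068 for Kdm4b, -0.25 for Kdm5a, -0.37 for Kdm5c, -0.11 for Kmt2b, -0.24 for Setd2 and -0.48 for Setd5. Removing the GC trend gave -0.059 for Kdm5a, 0.12 for Setd1a, 0.14 for Setd1b and -0.0032 for Setd5, and with the replicate block as well -0.074, 0.076, 0.068 and -0.021, with -0.048 for Setd2. Upper-quartile scaling gave -0.05 for Kdm5c and -0.14 for Setd5. Setd5 also had -0.094 with no filter, -0.015 with limma-trend, -0.014 with the replicate block, and -0.07 to 0.15 with libraries left out. With libraries left out, Kdm3b ranged from -0.013 to 0.43, Kdm5c from -0.12 to 0.39, Nsd1 from -0.32 to 0.036 and Setd7 from -0.21 to 0.16, each with its lowest value without 30 h replicate 1 and its highest without replicate 3, and with the length trend removed Setd7 had 0.049.

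Same-numbered libraries of the groups had deviations that correlated at -0.105, 0.105 and -0.029, and other pairs at -0.108 to 0.141. With 3 libraries per group, these values cannot decide whether same-numbered libraries share a source, which the labels do not give. With the replicate block, Kmt2d was the only member whose call was lost (log2 0.51, adjusted p = 0.0606).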
